A study of Mus musculus with 9 samples.

Results

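The BCL2 family decides at the mitochondrion whether a cell dies by apoptosis, and 10 of its genes were followed here across normal mouse thymus, thymus tumor and resistant thymus tumor. Every probe set whose only symbol in the platform's gene table was Bcl2, Bcl2l1, Mcl1, Bax, Bak1, Bcl2l11, Bik, Bid, Bmf or Bbc3 was taken, which gave 32 of the 45101 probe sets on the array. They covered 9 of the 10 genes. No probe set carried the symbol Bax alone, so Bax was not analysed here. Of the 32 probe sets, 27 passed the filter on dim signal (at or above the median of the array in at least 3 of the 9 arrays) and 5 did not.

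Total RNA from each tissue was hybridised to Affymetrix Mouse430_2 arrays, a short-oligonucleotide platform, with 3 arrays in each of the 3 groups. The label of the resistant tumors names resistance to XIST, a noncoding RNA known for silencing 1 X chromosome in female cells, and the other tumors carry no such label. The labels give no strain, age, sex, tumor driver, treatment or number of animals for any group. Nor do they tell whether replicate arrays stand for different mice, and every p-value below therefore speaks only of the spread among these 9 arrays, part of which may be technical.

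The arrays fell into those without poly-A spike-in signal (normal 1, tumor 1, resistant tumor 1 and 2, mean spike-in signal 2.01 to 2.95) and those with it (the other 5, 141 to 237), and each set held all 3 groups. Median signal per array was 13.9 to 25.8, and the ratio of the 3' to the 5' probe set of Actb, a sign of RNA integrity, was 1.63 to 3.16, highest in tumor 2. With 3 arrays a group, precision is limited by their number.

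Antiapoptotic members (BCL2, BCL-XL from Bcl2l1, MCL1) hold the effectors BAX and BAK in check at the outer mitochondrial membrane. BH3-only members (BIM from Bcl2l11, BIK, BID, BMF, PUMA from Bbc3) sense stress or death signals and either block the antiapoptotic members or activate the effectors, which then open the membrane and release cytochrome c. In the thymus the family sets the lifespan of thymocytes. BCL-XL is known for keeping CD4+ CD8+ double-positive thymocytes alive, and BIM and PUMA for the death of self-reactive or stressed thymocytes.

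Promoter sequence was available from RefSeq (GRCm38.p6) as the 250 bases before an annotated start, with 16 windows for 9 of the 10 genes. Bik had no entry. The windows were searched on both strands for 6 motifs whose factors are known to act on family genes, and matches occurred in windows of Bcl2, Bcl2l1, Mcl1, Bax, Bcl2l11, Bid, Bmf and Bbc3. As examples chosen after the matches were seen, 3 windows of members called lower on their brightest probe set are printed, 1 each with an E2F, a ROR and a FOXO match, and all matches in them stand in capitals.
Bcl2l1 start site 2, chr2:152830718-152830967, minus strand: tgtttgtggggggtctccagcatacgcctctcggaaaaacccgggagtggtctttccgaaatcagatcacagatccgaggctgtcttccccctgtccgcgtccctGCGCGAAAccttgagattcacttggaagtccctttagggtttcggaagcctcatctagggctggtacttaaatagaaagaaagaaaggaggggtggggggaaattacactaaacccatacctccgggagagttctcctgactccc
Bmf start site 3, chr2:118549687-118549936, minus strand: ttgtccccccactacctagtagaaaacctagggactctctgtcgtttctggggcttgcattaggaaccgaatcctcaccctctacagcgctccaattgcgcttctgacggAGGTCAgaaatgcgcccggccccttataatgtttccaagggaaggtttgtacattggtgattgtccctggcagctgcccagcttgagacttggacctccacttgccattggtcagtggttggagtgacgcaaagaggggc
Bcl2l11 start site 1, chr2:128125788-128126037, plus strand: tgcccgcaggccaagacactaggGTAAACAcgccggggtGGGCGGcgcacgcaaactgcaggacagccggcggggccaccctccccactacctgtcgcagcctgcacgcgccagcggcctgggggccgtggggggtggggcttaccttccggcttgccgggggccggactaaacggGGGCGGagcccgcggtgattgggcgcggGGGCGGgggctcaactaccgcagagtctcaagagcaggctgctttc

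The match in the Bcl2l1 window is the E2F motif TTTCGCGC, which reads GCGCGAAA on the gene's strand. This motif occurred in 0.256% of the 32817 windows of the table. That window lies inside the annotated span of Bcl2l1, whose 3 windows belong to start sites at different positions. The Bmf window holds AGGTCA, a half-site bound by ROR receptors, found in 14% of all windows. Start site 1 of Bcl2l1 held this motif on the other strand, as TGACCT. The Bcl2l11 window holds the FOXO motif GTAAACA, present in 3.16% of all windows and also in start site 2 of Bbc3, and 3 copies of the SP/KLF motif GGGCGG, present in 32.7%. The STAT motif TTCNNNGAA (7.01% of windows) matched in none of the members' windows, and the E-box CACGTG (6.02%) matched in those of Bax and Bbc3. These matches describe letters in a window and not bound sites.

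Most of the 9 measured members were lower in tumor than in normal thymus, on both sides of the survival balance. In the fit across all genes (limma on log2 signal, each gene by its brightest probe set), 7 of the 9 measured members were called at an adjusted p under 0.05, 6 lower and 1 higher, in a comparison in which 42.4% of all 11671 genes were called (19.1% lower and 23.3% higher). The lower members were Bcl2l1, Mcl1, Bcl2l11, Bid, Bmf and Bbc3, and the higher one was Bik. The median change of the 9 members was -0.57 on the log2 scale, beside 0.05 for all genes tested. The arrays of the compared groups did not overlap for 7 members, as for 55.3% of all genes. With each array scaled to the same median, 3 members were called (Bcl2l1 and Bmf lower, Bik higher). This scaling shifted all genes (median change 0.24 in place of 0.05) and also changed the SEs. The SE rose for Mcl1 from 0.10 to 0.36 and for Bid from 0.28 to 0.46, and fell for Bmf and Bbc3 to 0.29 each. That setting called 19.6% of all genes.

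Resistant tumor set against the same normal arrays gave 6 called members, 5 lower and 1 higher, where 43.3% of all genes were called (20.2% lower and 23.1% higher). Bbc3 was the member called in tumor and not here. The median change of the members was -0.65 on the log2 scale, beside 0.06 for all genes, and 7 members had groups that did not overlap, as did 54.6% of all genes. Equal array medians again left 3 calls (Bcl2l1, Bmf and Bik), where 17.4% of all genes were called. Both comparisons use the same 3 normal arrays, so their likeness is no independent evidence.

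**Figure D1:**
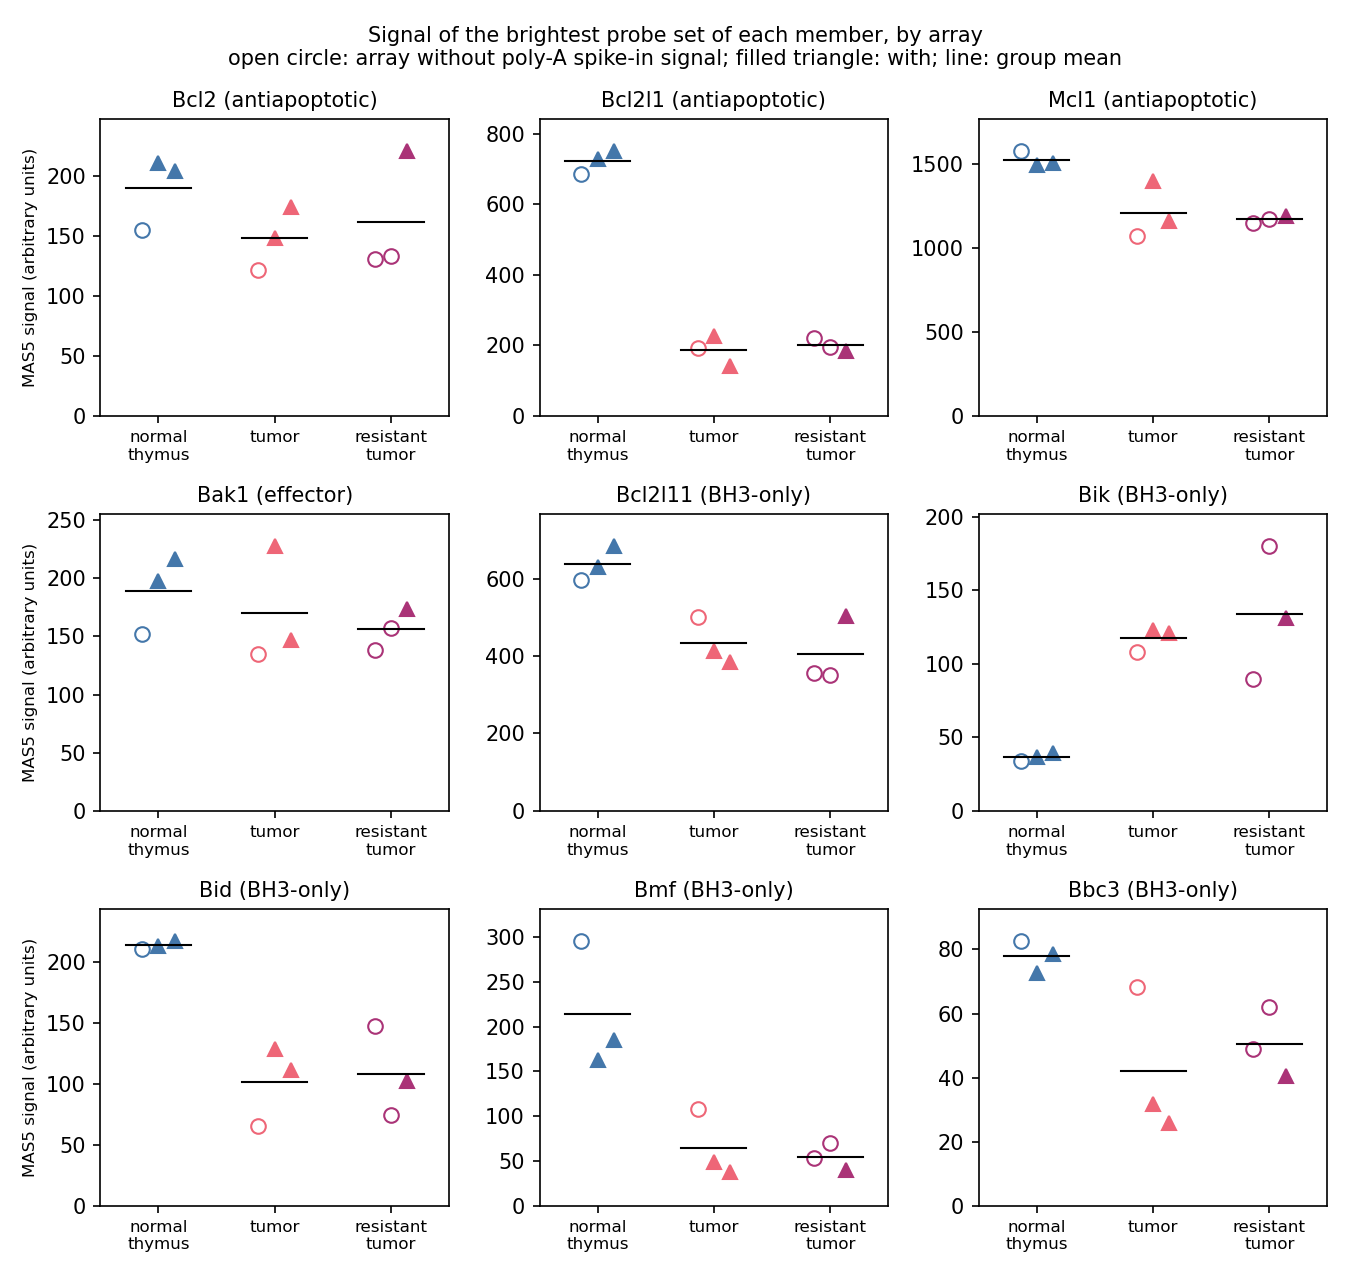
MAS5 signal (arbitrary units, linear axis from 0) of the brightest probe set of each of the 9 measured members in the 3 normal thymus, 3 tumor and 3 resistant tumor arrays, with a line at each group mean. Circles are arrays without poly-A spike-in signal and triangles arrays with it. Bcl2l1 lies between 686 and 751 in normal thymus and between 142 and 226 in all 6 tumor arrays, and Bik between 34.0 and 39.2 against 89.3 to 180.

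Among the antiapoptotic members, Bcl2l1 changed most. Its brightest probe set, 1420888_at, gave signals of 686, 729 and 751 in the normal arrays, 193, 226 and 142 in tumor, and 220, 194 and 185 in resistant tumor. All 6 tumor arrays were far below the lowest normal array. Against normal thymus, Bcl2l1 fell by 1.97 on the log2 scale in tumor (SE 0.17, adjusted p = 1.74e-05), to 25.5% of the normal level, and by 1.86 in resistant tumor (SE 0.17, adjusted p = 2.60e-05), to 27.6%. The other 2 probe sets past the filter were also lower. For 1420887_a_at the fit over all probe sets gave -2.23 in tumor and -2.19 in resistant tumor (adjusted p = 0.00147 and 0.00165). The dim 1426191_a_at reached the array median in only 3 arrays (normal 2, normal 3 and tumor 3) and was at least 1.4-fold lower in resistant tumor (adjusted p = 0.0244), while its change of -1.42 in tumor was not called (adjusted p = 0.3). The fourth, 1426050_at, stayed below the median of every array.

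Mcl1, which codes for a short-lived survival protein that developing T cells need, showed a small decrease. Probe set 1437527_x_at read 1577, 1493 and 1505 in normal thymus, 1070, 1396 and 1158 in tumor, and 1147, 1171 and 1191 in resistant tumor. No tumor array reached the lowest normal one, and tumor 2 came closest. Mcl1 fell by 0.34 in tumor (SE 0.10, adjusted p = 0.0236) and by 0.38 in resistant tumor (SE 0.10, adjusted p = 0.0149). All 6 Mcl1 probe sets were lower in both tumor groups, by 0.20 to 0.98 in tumor and 0.30 to 0.91 in resistant tumor, and the fit over all probe sets called 4 and 5 of them. The clearest was 1448503_at, with 1178, 1215 and 1258 in normal thymus against 702, 641 and 693 in tumor and 651, 633 and 725 in resistant tumor. It fell by 0.84 and 0.86 (SE 0.08 each, adjusted p = 0.000293 and 0.000264).

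The call for Mcl1 in tumor through 1437527_x_at was fragile. It was lost without normal 1, normal 2, normal 3, tumor 1 or tumor 3, with adjusted p from 0.0612 to 0.0778 in those 5 fits. An ID ending in _x_at marks probes that can also match unrelated sequences.

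Bcl2, the founding survival gene of the family, read differently by probe set. The brightest, 1457687_at, gave 155, 211 and 204 in normal thymus, 122, 148 and 174 in tumor, and 131, 133 and 221 in resistant tumor. The groups overlapped, and the changes of -0.36 (SE 0.23, adjusted p = 0.238) and -0.26 (SE 0.23, adjusted p = 0.400) were not called. The value in tumor was called with a block that separates arrays with and without poly-A spike-in signal (-0.36, SE 0.11, adjusted p = 0.0178), a setting that called 8 members and 58.7% of all genes, and as the mean over 5 probe sets (-0.54, adjusted p = 0.0229). One of the 5 Bcl2 probe sets was called, 1440770_at, at 195, 161 and 165 in normal thymus, 86.7, 83.1 and 79.9 in tumor, and 111, 115 and 151 in resistant tumor. The normal arrays were highest, the resistant tumor arrays intermediate and the tumor arrays lowest, with no overlap between any pair of groups. It fell by 1.06 in tumor (SE 0.14, adjusted p = 0.00135) and by 0.48 in resistant tumor (SE 0.14, adjusted p = 0.0492). The other 4 ranged from -0.55 to -0.28 in tumor and from -0.28 to -0.06 in resistant tumor.

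The measured effector, Bak1, which forms pores in the outer mitochondrial membrane, was not called in either comparison. Probe set 1418991_at read 152, 198 and 217 in normal thymus, 135, 228 and 147 in tumor, and 138, 157 and 174 in resistant tumor. The groups overlapped throughout. The changes were -0.18 in tumor (95% interval -0.66 to 0.31, adjusted p = 0.553) and -0.26 in resistant tumor (-0.75 to 0.22, adjusted p = 0.359). The second Bak1 probe set was below the array median everywhere.

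**Figure D2:**
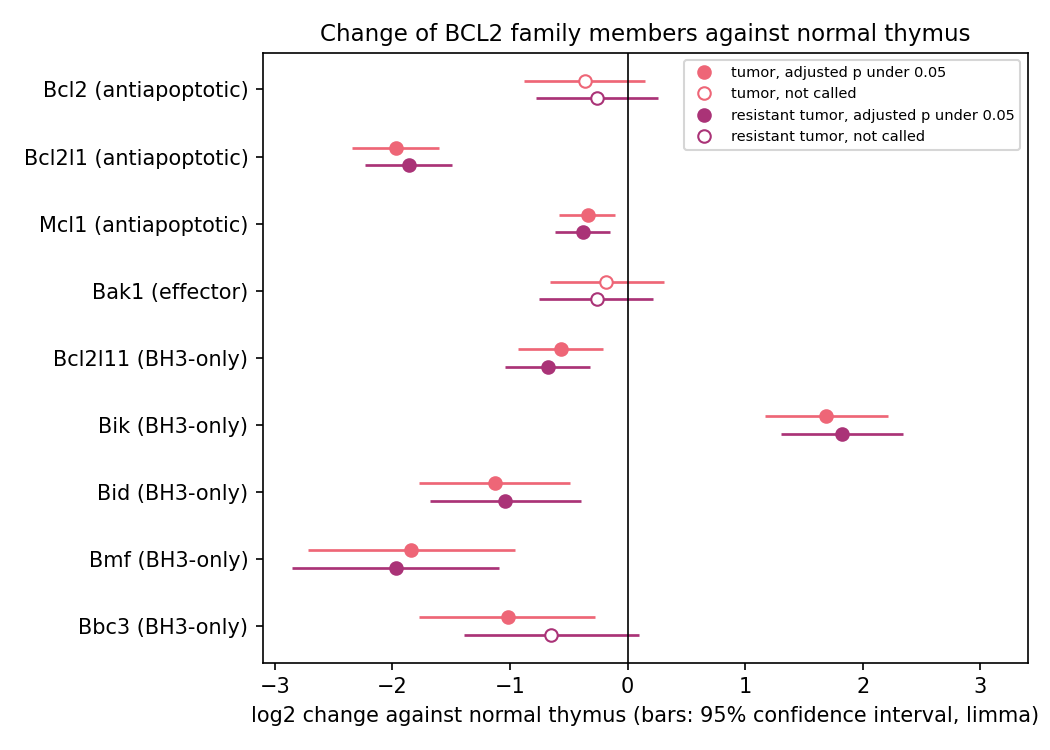
Log2 change of each member against normal thymus (x axis), for tumor and resistant tumor, with 95% confidence intervals from limma as bars and filled symbols for an adjusted p under 0.05. Bcl2l1 (-1.97 and -1.86) and Bmf (-1.84 and -1.97) lie furthest to the left, and Bik alone lies to the right, at 1.69 and 1.82.

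The 5 BH3-only members did not move as 1 group: 4 were called lower in tumor and Bik was called higher. Bmf, whose protein is known for responding to detachment and to changes of the cytoskeleton, fell most. Its probe set 1454880_s_at gave 296, 163 and 185 in normal thymus, 108, 48.2 and 37.5 in tumor, and 53.1, 70.1 and 39.6 in resistant tumor. No tumor array reached a normal one, although normal 1 and tumor 1 stood above the others of their groups. Bmf fell by 1.84 in tumor (SE 0.39, adjusted p = 0.00428) and by 1.97 in resistant tumor (SE 0.39, adjusted p = 0.00299), to 27.9% and 25.5% of the normal level. With 50 added to each signal before the log, the changes were -1.22 and -1.32 (adjusted p = 0.00261 and 0.00174). The other 2 Bmf probe sets did not pass the filter, so these values rest on 1 probe set, and IDs ending in _s_at mark probes shared by transcripts of more than 1 gene.

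Bid couples death receptors to the mitochondrion once caspase-8 has cut its protein. Probe set 1417045_at read 210, 213 and 217 in normal thymus, 65.3, 128 and 111 in tumor, and 147, 74.4 and 102 in resistant tumor. The normal arrays were nearly equal, and all 6 tumor arrays were lower and more scattered. Bid fell by 1.13 in tumor (SE 0.28, adjusted p = 0.0100) and by 1.04 in resistant tumor (SE 0.28, adjusted p = 0.0152). Without resistant tumor 2, the lowest of its group, the change in resistant tumor was -0.80 and was no longer called (adjusted p = 0.0565). Of the other 2 probe sets past the filter, 1448560_at was at -2.34 and -2.15, with tumor 1 at a signal of 1.14, near the floor of 1. Signal of 1447873_x_at was under the array median in all arrays of the tumor group. It was at least 1.28-fold lower in tumor and at -0.33 in resistant tumor. None of these 4 values was called.

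Bcl2l11 depended on the probe set. The brightest, 1456005_a_at, gave 599, 631 and 686 in normal thymus, 502, 414 and 385 in tumor, and 358, 351 and 505 in resistant tumor. Every tumor array was below every normal one. On this probe set Bcl2l11 fell by 0.57 in tumor (SE 0.16, adjusted p = 0.0175) and by 0.68 in resistant tumor (SE 0.16, adjusted p = 0.00747). The other 3 probe sets past the filter showed no such difference: 1435448_at, for one, read 313, 264 and 300 in normal thymus, 337, 386 and 296 in tumor, and 274, 281 and 318 in resistant tumor. Their changes ranged from -0.02 to 0.21 in tumor and from -0.07 to 0.14 in resistant tumor, and none was called. The mean over the 4 probe sets was -0.10 (adjusted p = 0.667) and -0.15 (adjusted p = 0.463). The call in tumor was also lost without normal 2, normal 3, tumor 2 or tumor 3 (adjusted p from 0.0545 to 0.0711). An ID ending in _a_at marks probes that recognise several transcripts of 1 gene. Which Bcl2l11 transcripts each probe set detects was not analysed here.

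Bbc3, a target of p53 that mediates death after DNA damage and loss of cytokines, was measured by 1 probe set, 1423315_at. It read 82.7, 72.6 and 78.6 in normal thymus, 68.4, 31.8 and 25.9 in tumor, and 49.0, 62.1 and 40.5 in resistant tumor. All tumor arrays were below the normal ones, with tumor 1 close to them. Bbc3 fell by 1.02 in tumor (SE 0.33, adjusted p = 0.0324), and its change of -0.65 in resistant tumor was not called (SE 0.33, adjusted p = 0.149). The tumor call was lost without normal 1, normal 2, normal 3, tumor 2 or tumor 3 (adjusted p from 0.0708 to 0.119), and the resistant tumor value was called without tumor 1 (adjusted p = 0.0301). With 50 added before the log, the change in tumor was -0.50 (adjusted p = 0.0276). In the 1 normal and 1 tumor array without spike-in signal the difference in tumor was -0.27, and in the 2 and 2 arrays with it -1.40. With that block, resistant tumor was at -0.85 (adjusted p = 0.0125), among 7 members and 58.8% of all genes called.

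Bik, whose protein sits mainly at the endoplasmic reticulum and neutralises antiapoptotic members, rose. Its probe set 1449836_x_at gave 34.0, 36.2 and 39.2 in normal thymus, 108, 123 and 121 in tumor, and 89.3, 180 and 131 in resistant tumor. Every tumor array was above every normal array, and the 3 resistant tumor arrays were more scattered than the others. Bik rose by 1.69 in tumor (SE 0.23, adjusted p = 0.000346), to 3.22 times the normal level, and by 1.82 in resistant tumor (SE 0.23, adjusted p = 0.000233), to 3.52 times. The size depends on the treatment of low signals: with 50 added before the log, the changes were 0.95 and 1.06 (adjusted p = 0.000894 and 0.000494). Its other 2 probe sets, neither with an _x_at ID, rose too. For 1420362_a_at the normal arrays read 19.6, 29.9 and 28, the tumor arrays 85.1, 131 and 109, and the resistant tumor arrays 71.2, 120 and 195, with changes of 2.07 and 2.22 (adjusted p = 0.00519 and 0.00373). Signal of 1420363_at was under the array median in all 3 normal arrays, so it has only a bound there and was at least 3.08-fold higher in tumor and at least 3.57-fold higher in resistant tumor (adjusted p = 0.00223 and 0.00141).

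**Figure D3:**
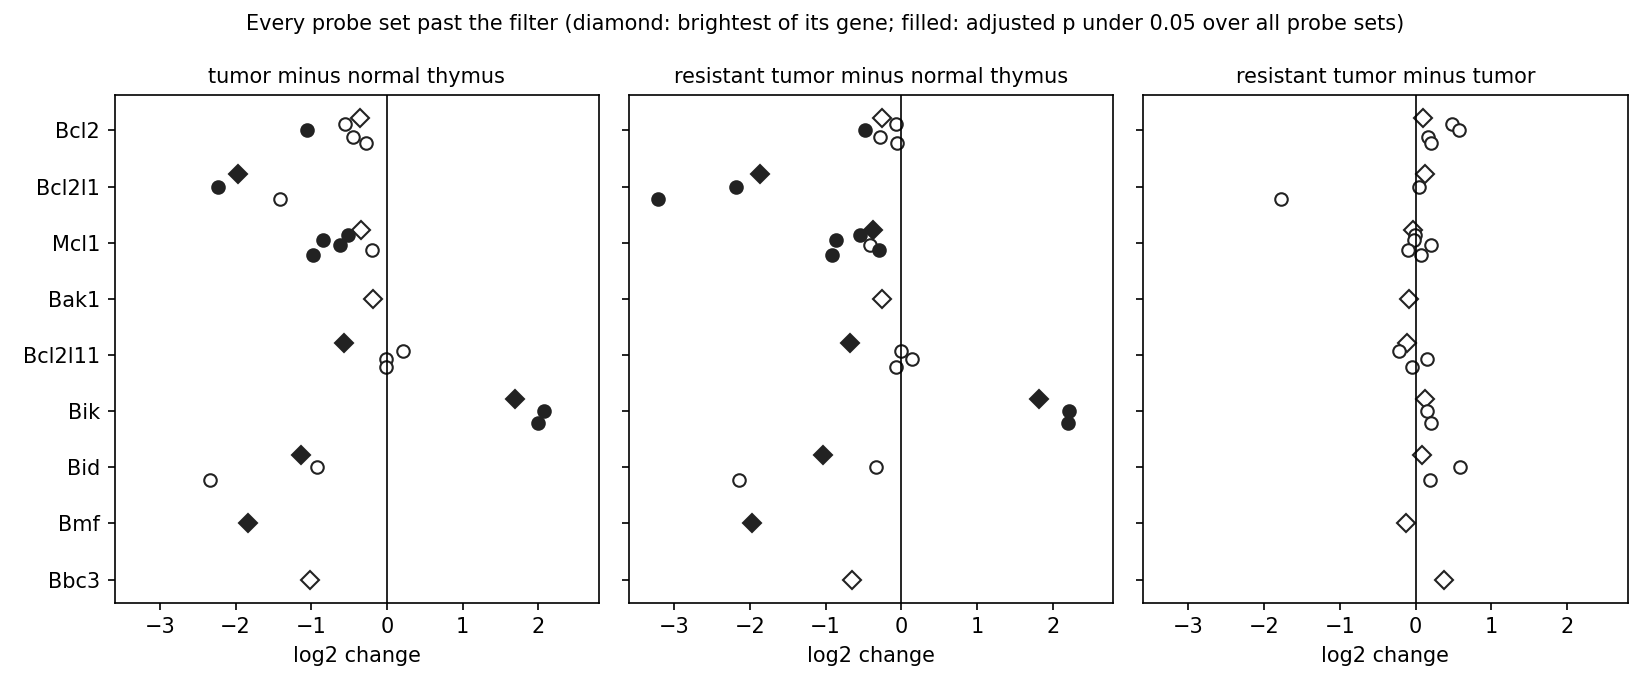
Log2 change of each of the 27 member probe sets past the filter (x axis), by gene, in the 3 comparisons. Diamonds are the brightest probe set of a gene, circles the others, and filled symbols have an adjusted p under 0.05 over all probe sets. The 3 Bik probe sets lie together on the right (1.69 to 2.07 in tumor), the 6 of Mcl1 all lie left of 0 against normal thymus, and 1 of 4 of Bcl2l11 stands apart from the rest.

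Counted by probe set, with p-values adjusted over all 45037 non-control probe sets, 13 of 32 member probe sets were called in tumor against normal thymus (3 higher, 10 lower) and 15 in resistant tumor (3 higher, 12 lower). Of all 45037, taken without the filter on dim signal, 18.5% were called in each of these comparisons. That share is no like-for-like background for the members, because 27 of their 32 probe sets passed the filter. All 3 higher member probe sets were those of Bik. Mcl1 1437527_x_at (adjusted p = 0.0548) and Bbc3 1423315_at (adjusted p = 0.0817) missed the threshold in this fit in tumor, although the fit by gene called them. Among the 27 past the filter, 23 had a negative change and 4 a positive one in each comparison with normal thymus. Of the 23, 10 were called in tumor and 12 in resistant tumor. Several probe sets read the same gene (6 for Mcl1 and 5 for Bcl2). The share of negative changes over all probe sets was not computed, nor was the share called among all probe sets past the filter.

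Resistant tumor and tumor, the pair that the label of resistance separates, did not differ detectably in any of the 9 measured members. None was called by limma, none had an unadjusted p under 0.05, and no member had groups without overlap, where 0.36% of all genes were called and 10.4% had groups that did not overlap. The differences ranged from -0.13 for Bmf (SE 0.39, 95% interval -1.01 to 0.75) to 0.38 for Bbc3 (SE 0.33, -0.37 to 1.13), with a median of 0.09 beside -0.02 for all genes. Bcl2l1 differed by 0.12 (-0.26 to 0.49), Mcl1 by -0.04 (-0.27 to 0.20) and Bik by 0.13 (-0.39 to 0.65). For Mcl1 the interval leaves out a change of 1 on the log2 scale in either direction, whereas for Bmf and Bbc3 it does not.

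By probe set, 1 of 32 had an unadjusted p under 0.05 in this comparison, Bcl2 1440770_at. Its resistant tumor arrays (111, 115 and 151) were all above its tumor arrays (86.7, 83.1 and 79.9), a difference of 0.58 (SE 0.14) with an adjusted p of 0.456 in the limma fit, which called 0.0178% of all probe sets. All 5 Bcl2 probe sets read higher in resistant tumor, by 0.10 to 0.58, and the other 4 had groups that overlapped.

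The rest of the apoptosis pathway was followed in 4 further lists. Their counts stand beside 42.4% of all genes called in tumor and 43.3% in resistant tumor. No list was tested as a set. Of 17 other BCL2 family genes, 9 were tested, and 2 were called higher and 1 lower in tumor, the same counts as in resistant tumor. The median change of the 9 was 0.29 in tumor and 0.18 in resistant tumor on the log2 scale, unlike the negative medians of the members. Bcl2l14, a family member of uncertain role in apoptosis, rose from a signal of 22.6 ± 1.74 (SD, n = 3) to 75.7 ± 14.3 in tumor and 97.1 ± 16.3 in resistant tumor, or by 1.73 and 2.09 (SE 0.20 each, adjusted p = 0.000126 and 4.01e-05). Bnip3, which acts in mitophagy and is induced by low oxygen, rose by 1.57 in both (SE 0.35 each, adjusted p = 0.00547 and 0.00554). Pmaip1, which codes for the BH3-only protein NOXA that binds MCL1, was under the array median in all tumor arrays and was at least 2-fold lower in tumor and at least 1.68-fold lower in resistant tumor (adjusted p = 0.000799 and 0.00405).

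The next list held genes of the mitochondrial pathway, most of them acting downstream of BAX and BAK. There caspases carry out the death programme and IAP proteins restrain them. Of 20 listed genes, 18 were tested. In tumor 2 were called higher and 4 lower, and in resistant tumor 5 higher and 4 lower. Birc3, an IAP gene induced by NF-kappaB, fell from a signal of 304 ± 72.9 to 77.0 ± 29.3 in tumor and 98.5 ± 30.2 in resistant tumor, by 2.01 and 1.65 (SE 0.32 each, adjusted p = 0.000805 and 0.00254). Its relative Birc2 fell by 0.71 and 0.61, and Casp6, an executioner caspase, by 0.92 and 0.94 (adjusted p at most 0.00900). Vdac1, the main channel of the outer mitochondrial membrane, rose by 0.57 and 0.35 (adjusted p = 0.00463 and 0.0460).

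In the death receptor pathway, 9 of 13 listed genes were tested, with 2 called higher and 4 lower in both tumor groups. Fas, the receptor that triggers apoptosis when bound by its ligand, stood at 178 ± 21.8 in normal thymus and under the array median in all 6 tumor arrays, at least 10.2-fold lower in tumor and at least 8.57-fold lower in resistant tumor (adjusted p = 8.78e-05 and 0.000108). Cflar, which codes for the caspase-8 inhibitor c-FLIP, fell by 1.28 and 1.36 (SE 0.13 each, adjusted p = 4.65e-05 and 3.14e-05). Tnfrsf1a, the main TNF receptor gene, fell by 0.49 and 0.55, and Tradd, its adaptor, rose by 0.57 and 0.58 (adjusted p at most 0.0373).

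Among 21 tested of 25 listed regulators, which act on the transcription, stability or activity of family members, 3 were called higher and 7 lower in tumor, and 2 higher and 6 lower in resistant tumor. Nr4a1, a nuclear receptor induced by T cell receptor signals that is known to bind BCL2, fell from a signal of 319 ± 17.5 to 20.7 ± 11.2 in tumor and 24.0 ± 9.65 in resistant tumor, by 4.08 and 3.82 (SE 0.39 each, adjusted p = 3.85e-05 and 5.64e-05). Il7r, the receptor chain through which interleukin-7 maintains Bcl2 and Mcl1, fell by 3.79 and 3.04 (SE 0.26 each, adjusted p = 5.23e-06 and 2.05e-05). Pim1, a survival kinase that phosphorylates BH3-only proteins, fell by 1.63 and 1.52 (SE 0.14 each, adjusted p = 2.26e-05 and 3.52e-05). E2f1, a transcription factor of the cell cycle, rose by 0.90 and 0.63 (SE 0.22 each, adjusted p = 0.00915 and 0.0430).

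**Figure D4:**
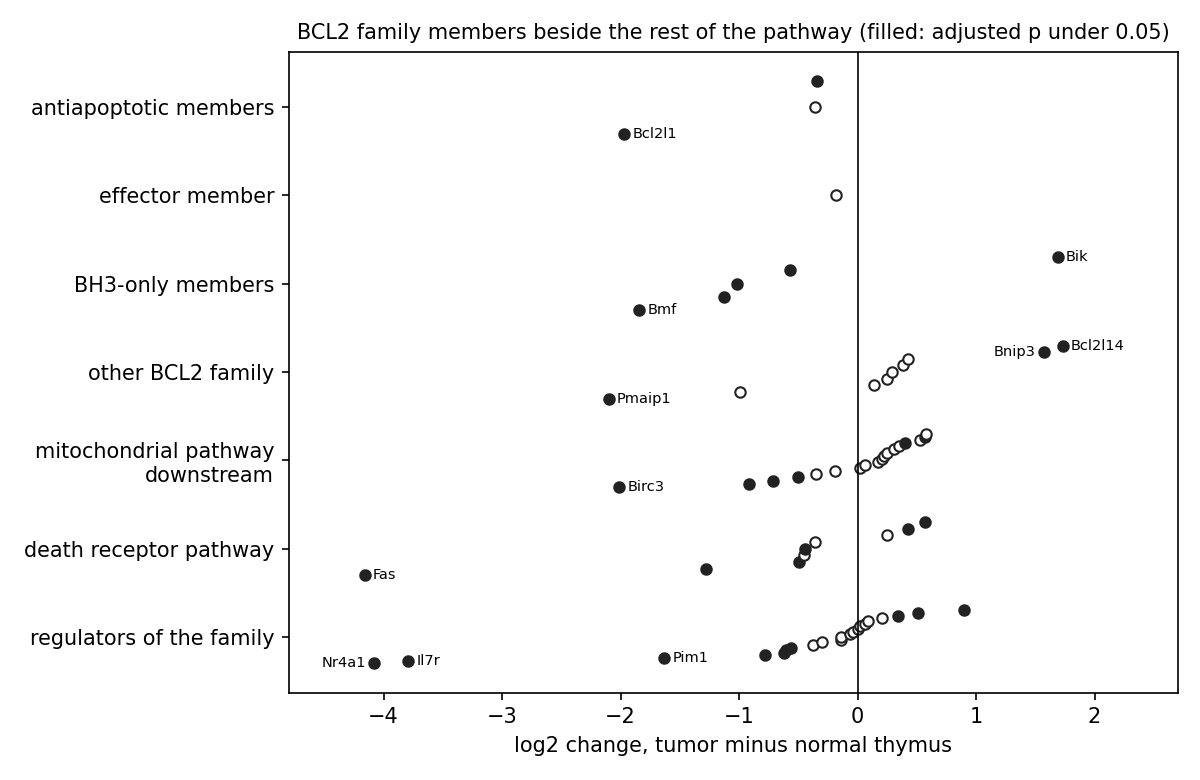
Log2 change in tumor against normal thymus (x axis) of each tested member and of each tested gene in the 4 further lists, 1 point per gene, filled where the adjusted p was under 0.05. Points of a list are spread vertically for sight only, and Fas and Pmaip1 are drawn at their fitted changes although they are given as bounds in the text. Bcl2l1 (-1.97) and Bmf (-1.84) lie close to Birc3 (-2.01), Nr4a1 and Fas lie furthest to the left, and Bcl2l14 (1.73), Bik (1.69) and Bnip3 (1.57) furthest to the right.

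Between resistant tumor and tumor, none of the genes of these 4 lists was called. At an unadjusted p under 0.05 there was 1 gene of 9 among the other family genes, 1 of 18 in the mitochondrial pathway, 0 of 9 in the death receptor pathway and 2 of 21 regulators. The share of all genes at that threshold was not counted. Chosen after their values were seen, Bcl2l2 and Jak3 were the genes called with a block for spike-in signal, a setting that called 1.23% of all genes. Bcl2l2, which codes for the antiapoptotic BCL-W, read 62.7 ± 6.94 in resistant tumor and 101 ± 18.3 in tumor, without overlap, a difference of -0.68 (SE 0.17, adjusted p = 0.213, and 0.0317 with the block). Jak3, a kinase of interleukin-7 signalling, differed by 0.52 (SE 0.27, adjusted p = 0.752, and 0.0388 with the block).

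The profiles most like that of Bcl2l1 over the 9 arrays, by the root mean square difference of log2 signals centred on each gene's mean, were those of Pik3cd, Trim12a and Cd247, each at 0.19, and 97 genes lay within 0.3. Cd247 codes for a signalling chain of the T cell receptor. For Bik the nearest were Prag1 at 0.15, Evi5 at 0.18 and Camkv at 0.18, and 96 genes lay within 0.3.

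The tissues also differed in markers of their cells. Over 7 measured of 8 double-positive thymocyte markers, the summed signal was 15373 to 16911 in normal thymus, 5276 to 5844 in tumor and 4796 to 6365 in resistant tumor, 6 of the 7 were called lower in each tumor group, and Cd8a and Cd8b1 were under the array median in all 6 tumor arrays. The sums hide unequal changes: the median change of the 7 was -6.00 in tumor and -6.45 in resistant tumor on the log2 scale, the same with genes under the array median at their bounds, while Rag1 (-0.54 and -0.57) and Dntt (-0.18 and -0.11, not called) made up most of the signal left. Thymic epithelial markers, 9 of 9 measured, summed to 7194 to 7719 in normal thymus, 109 to 237 in tumor and 117 to 167 in resistant tumor. Of these 9, 6 were under the array median in all tumor arrays and 5 in all resistant tumor arrays. Immature thymocyte markers, 7 of 7 measured, summed to 2865 to 3170, 8847 to 9570 and 7327 to 8912, and fibroblast markers, 8 of 8, to 1144 to 1236, 2560 to 5795 and 3261 to 7505. Of the 7 immature markers, 4 were called higher and 0 lower in each tumor group. Of the 8 fibroblast markers, 4 were called higher and 0 lower in tumor, and 5 higher and 1 lower in resistant tumor. Of all genes, 23.3% and 23.1% were called higher. Mature T cell markers (8 of 9) summed to 1774 to 2000 in normal thymus, 207 to 295 in tumor and 284 to 393 in resistant tumor, and Ccr7 was under the array median in all 6 tumor arrays. B cell markers (6 of 7) summed to 287 to 324, 30.0 to 122 and 70.0 to 128, dendritic cell markers (7 of 7) to 601 to 640, 65.3 to 120 and 84.4 to 116, and neutrophil markers (7 of 7) to 841 to 1015, 37.5 to 187 and 57.1 to 89.3. In all tumor arrays, 5 B cell, 6 dendritic cell and 4 neutrophil markers were under the array median. In all resistant tumor arrays 4, 6 and 5 were. Of 5 tested B cell markers, 5 were called lower in tumor and 1 in resistant tumor. Macrophage markers (8 of 9) summed to 1756 to 2222, 1091 to 1919 and 1235 to 2301, and endothelial markers (7 of 7) to 327 to 344, 438 to 656 and 472 to 790. Of the 7 endothelial markers, 4 were called higher and 1 lower in each tumor group. The part of these shifts in the members' changes was not tested. In bulk tissue fewer cells of a type and less RNA per cell cannot be told apart.

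Within the arrays without and within the arrays with spike-in signal, every called member kept its direction in both comparisons with normal thymus. Normal thymus and tumor had only 1 array each without spike-in signal, and resistant tumor 3 was the only array of its group with it. Bcl2l1 was at -1.83 without and -2.04 with spike-in signal in tumor, Bik at 1.67 and 1.70, and Bmf at -1.46 and -2.03. The other called members in tumor were at -0.56 and -0.24 (Mcl1), -0.26 and -0.72 (Bcl2l11), -1.68 and -0.85 (Bid) and -0.27 and -1.40 (Bbc3).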

How the data were processed

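Each deposited value is a linear probe-set intensity that the authors computed by MAS5, as the submitters' processing notes name it. Its version, scaling target and detection calls are not stated in these sources, and the trimmed mean was 100.03 in every array. Signals were floored at 1 and put on the log2 scale without renormalizing the arrays. A probe set passed when at least 3 of 9 arrays reached that array's median, and a gene was read by its passing probe set of highest mean log2 value (11671 genes). Probe sets with several symbols or none stayed out. The linear model had 3 group means over the 9 arrays (limma 3.58.1, R 4.3.3; lmFit, eBayes with an intensity trend), with two-sided contrasts adjusted by Benjamini-Hochberg over all genes, and called under 0.05. Single probe sets come from a like fit of all 45037 non-control probe sets without the filter. The fits were tested on simulated data with noise drawn independently for each array, so that test does not cover deviations shared between arrays.

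Where every array of a group read below its own median, a fold is given as a bound ("at least"): the brighter group's mean log2 value less the dimmer group's mean, with each dim value raised to its array's median. For tumor 1 the control rows were ordered differently (correlation with the others -0.295 as deposited, 0.907 after sorting) and entered no test. The spike-in block in the probe-set fit and the values within spike-in sets were chosen after seeing the data. The labels do not say whether replicate numbers pair the arrays, and the reported fit used no pairing. The rule for names takes every member and probe set, up to 4 called genes per other list with the largest change in tumor against normal thymus and no overlap between groups, any called between the tumor groups, and the 3 nearest profiles of the members that fell and rose most. The members and lists were chosen with earlier results of these data known. Plots used matplotlib 3.10.9 (Python 3.11.15). Alternatives were another normalization, offset, filter, variance model, probe-set rule, sample set or block, and leaving out each array.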

Additional observations from a re-analysis of the deposited data

How the results depend on the processing

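Bcl2l1, Bik and Bmf kept their direction and their call in both comparisons with normal thymus under every alternative run and with each array left out, although their size moved (Bik was 0.95 and 1.06 with 50 added before the log). With equal array medians, 3 members were called in tumor (7 in the reported fit) and 3 in resistant tumor (6), and 6 and 7 member probe sets (13 and 15). Under that setting the median over all genes was 0.24 in tumor (0.05 as reported), 0 in resistant tumor (0.06) and -0.26 between the tumor groups (-0.02), and it called 2287, 2034 and 18 genes (4943, 5049 and 42). In tumor, Mcl1 (-0.16), Bcl2l11 (-0.38), Bid (-0.94) and Bbc3 (-0.84) lost their calls under it, Bbc3 with no filter (adjusted p = 0.0637) and Mcl1 without the intensity trend (adjusted p = 0.0531), and the 75th percentile filter left Bbc3 out. In resistant tumor, Mcl1 (-0.44), Bcl2l11 (-0.74) and Bid (-1.10) lost theirs under equal medians with changes no smaller than reported and larger SEs (0.36, 0.38 and 0.46), and Bbc3 was called in a fit of only the compared groups (adjusted p = 0.0380). Leaving out 1 array gave 4 to 7 called members in tumor (4 without normal 2, normal 3 or tumor 3), 5 to 7 in resistant tumor, and 0 to 0 between the tumor groups, where no alternative called a member.

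Signs turned only in uncalled values; the cause was not tested. Bak1 in tumor was 0.01 with equal medians. Between the tumor groups that setting gave Bcl2 -0.14, Bcl2l1 -0.13, Bik -0.12 and Bid -0.16, the mean over probe sets gave Bcl2l1 -0.54 and Mcl1 0.02, and the spike-in block gave Bak1 0.04. Leaving out 1 array there gave ranges of -0.14 to 0.23 for Bcl2, -0.07 to 0.27 for Bcl2l1, -0.12 to 0.07 for Mcl1, -0.23 to 0.15 for Bak1, -0.12 to 0.39 for Bik, -0.20 to 0.33 for Bid and -0.45 to 0.31 for Bmf. Same-numbered arrays deviated together (correlations 0.371 to 0.654) except resistant tumor 2 with normal 2 (-0.337) and tumor 2 (-0.301). Resistant tumor 2 had no spike-in signal, whereas normal 2 and tumor 2 had it, and every other same-numbered pair shared its spike-in set. The part of the spike-in set in these correlations was not tested. The labels do not say whether the numbers pair the arrays. With the replicate block 7, 6 and 0 members were called, as without it, and 5967, 6085 and 92 genes. Dim probe sets limit what can be read: 5 of 32 were not past the filter.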
